A study of Homo sapiens with 4 samples.

Results

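The metabolic nuclear receptors described here are 10 genes of the 18806 in the deposited expression table, picked by symbol: NR1H4 (FXR), NR0B2 (SHP), NR1I2 (PXR), NR1I3 (CAR), PPARA, PPARG, RXRA, RARB, VDR and ESRRA. All 10 were listed, and 8 of them reached a mean of 1 TPM (transcript abundance scaled for transcript length and to a fixed library total) over the 4 libraries and were tested. The libraries came from Huh7, a human hepatocellular carcinoma line, in a single clone that carried Cas9. Cells were infected with a lentiviral guide RNA and selected with hygromycin. The control group, sgNS, received a non-specific guide, and the other group received a guide against METTL16, an RNA methyltransferase that also binds RNA without modifying it. The labels call the latter a METTL16 knockdown and the methods call it a knockout, written METTL16 KO below. Each group held 2 libraries called biological replicates. Separate transduction is not stated in the sources used here, so the p-values measure the spread between these libraries, which may be technical, and both groups share 1 clone as their background.

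Nuclear receptors are transcription factors, most of which bind a small lipid-soluble ligand and then exchange corepressors for coactivators on DNA. FXR, PXR, CAR, the PPARs, the retinoic acid receptors and VDR bind DNA mainly as pairs with a retinoid X receptor such as RXRA, whereas SHP has no DNA-binding domain and represses other receptors by contact. In hepatocytes they set the expression of enzymes and transporters for bile acids, drugs, fatty acids and fat-soluble vitamins, and FXR induces SHP in a negative feedback on bile acid synthesis.

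METTL16 itself was at 26.29 and 25.14 TPM in the sgNS libraries against 17.62 and 18.75 TPM in the METTL16 KO libraries, a log2 fold change of -0.50 (SE 0.062, adjusted p = 2.4e-05, limma). Hepatocyte markers summed to 18169 and 18266 TPM in sgNS against 31697 and 31222 TPM in METTL16 KO, with 8 of 10 called higher and 2, APOB and TF, called lower. AFP, the fetal serum protein alpha-fetoprotein, was at 1737.22 and 1793.38 TPM in the controls and at 10386.51 and 10197.33 TPM in the KO libraries, and the sum of the other 9 was 16432 and 16473 TPM and then 21310 and 21025 TPM. Summed markers of leukocytes were within 1.5 to 2.48 TPM and of stellate cells or fibroblasts within 2.66 to 3.53 TPM. Endothelial markers summed to 5.15 and 4.76 TPM in the controls and to 3.13 and 2.73 TPM in the KO libraries, nearly all of it PECAM1, which was called lower (-0.75, adjusted p = 0.00025), and KDR was listed at 0 in every library. The part of these marker differences in the receptor results below was not tested. Because the RNA is from bulk cultures, fewer cells of a type and less RNA per cell cannot be told apart. Most genes differed between the groups: of 11971 tested, 50.1% were called higher and 25.6% lower in METTL16 KO at an adjusted p under 0.05. Over all genes the median log2 fold change was 0.16, and after median-ratio scaling, which brings that median to about 0, the shares were 36.4% higher and 36.5% lower. Both scales are therefore given for members that lie near this shift.

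In METTL16 KO, 5 receptors were called higher (VDR, RARB, ESRRA, PPARG and PPARA), 2 were called lower (NR0B2 and NR1H4) and RXRA was not called. That is 7 of 8 tested against 75.7% of all genes called in either direction, and the 7 include VDR, which reached the test only through the KO libraries. RARB and VDR were called and at least 2-fold higher, against 7.7% of all genes, and no receptor was called and at least 2-fold lower, against 3.77%. The 2 groups did not overlap for 7 of the 8 tested receptors, where 87.4% of all genes showed the same. The median log2 fold change of the 8 was 0.28, beside 0.16 for all genes. VDR could only raise this median and the counts of receptors called higher, with or without the 2-fold limit. After median-ratio scaling 4 were called higher and 2 lower, with PPARA and RXRA not called and a median of 0.11.

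**Figure D1:**
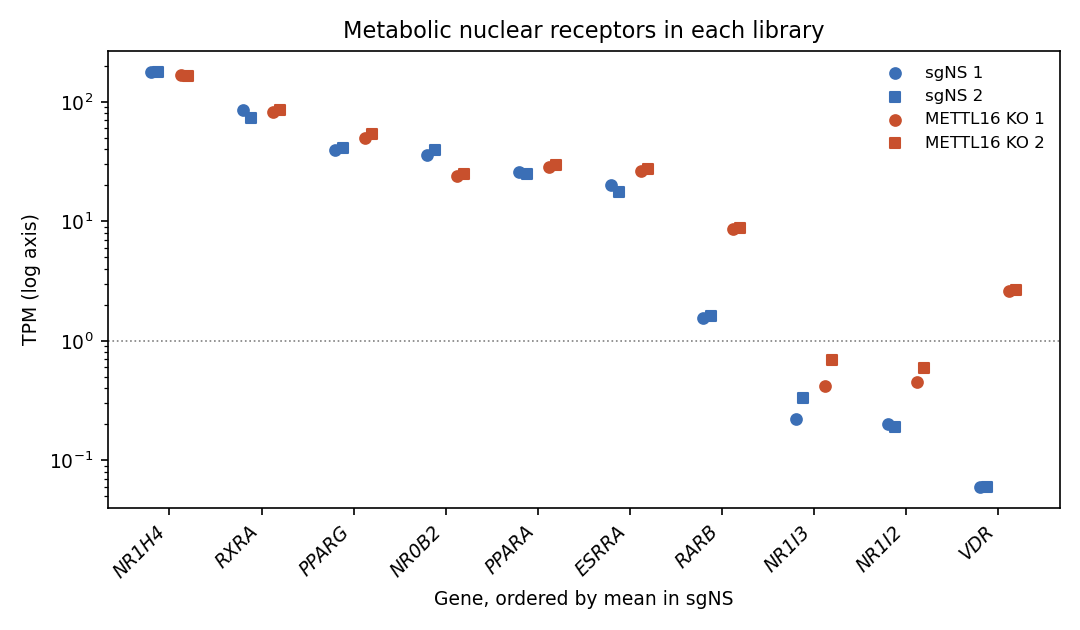
Level of each receptor in TPM on a log axis, with 1 point per library for the 2 sgNS and the 2 METTL16 KO libraries. NR1H4 was the highest in both groups, and VDR moved from 0.06 TPM in both sgNS libraries to 2.61 and 2.66 TPM in METTL16 KO. The dotted line marks 1 TPM.

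Among the bile acid receptors, NR0B2 fell and NR1H4 was slightly lower. NR1H4 encodes FXR, the bile acid sensor, and lies on chromosome 12 at 100473708-100564414 on the plus strand (GRCh38, GENCODE v44, as for all gene positions here). It was at 178.85 and 179.4 TPM in sgNS against 166.8 and 164.45 TPM in METTL16 KO. Both KO libraries were below both controls, and the log2 fold change was -0.11 (SE 0.034, adjusted p = 0.011). After median-ratio scaling it was -0.28 (adjusted p = 3.5e-05). NR1H4 was the most abundant of the 47 nuclear receptors in the table in sgNS and ranked 2 in METTL16 KO, above 95.6% and 94.9% of all genes. The call at the deposited scale was lost without METTL16 KO replicate 1 (adjusted p = 0.0615), without METTL16 KO replicate 2 (0.104) and in limma with no intensity trend (0.07).

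NR0B2, the gene of SHP, lies on chromosome 1 at 26911489-26913975 on the minus strand. Its level was 35.97 and 39.85 TPM in sgNS and 24.03 and 24.85 TPM in METTL16 KO, with no overlap between the groups. The log2 fold change was -0.63 (SE 0.061, adjusted p = 3.7e-06), the most negative of the 8 tested receptors, and it was -0.79 after median-ratio scaling. Its rank among the 47 nuclear receptors went from 9 to 17. NR1H4 mRNA stood at 4.97 and 4.50 times that of NR0B2 in sgNS and at 6.94 and 6.62 times in METTL16 KO.

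Activators of the NR0B2 gene other than FXR include NR5A2 (LRH-1) and HNF4A, which also drive bile acid synthesis genes and which SHP represses. NR5A2 was at 38.32 and 40.26 TPM in sgNS against 82.22 and 81.68 TPM in METTL16 KO (log2 fold change 1.06), and HNF4A was at 172.23 and 159.96 TPM and at 266.32 and 273.07 TPM (0.70). The ratio of NR5A2 to NR0B2 was 1.07 and 1.01 in the controls and 3.42 and 3.29 in the KO libraries. The ratio of HNF4A to NR0B2 was 4.79 and 4.01 in the controls and 11.08 and 10.99 in the KO libraries. HNF4A took the first rank that NR1H4 had held in sgNS: NR1H4 was 1.04 and 1.12 times HNF4A in the controls and 0.63 and 0.60 times in METTL16 KO.

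Of 10 known FXR targets, 8 were tested, of which 3 were called higher and 5 lower, beside 50.1% and 25.6% of all genes. Their median log2 fold change was -0.42 beside 0.16 for all genes (-0.59 after median-ratio scaling). SLC51B, a subunit of the basolateral bile acid exporter, was at 67.15 and 64.69 TPM in sgNS against 38.95 and 37.43 TPM in METTL16 KO (-0.79), and its partner SLC51A was also lower (-0.73, adjusted p = 0.0511 without sgNS replicate 2). The phospholipid exporter ABCB4 (-0.63), the proteoglycan SDC1 (-0.77) and the hormone FGF19 (-0.22), which was at 30.24 and 31.81 TPM and at 26.84 and 26.52 TPM, completed the genes called lower. KNG1, which encodes kininogen, went the other way, from 77.02 and 79.04 TPM to 301.11 and 295.63 TPM (1.93), with UGT2B4, a glucuronosyltransferase (0.86), and FETUB, a plasma protease inhibitor (0.53). The FETUB call was lost after median-ratio scaling (adjusted p = 0.103) or quantile normalization (0.296), with no filter (0.076) and without METTL16 KO replicate 1 (0.204) or sgNS replicate 1 (0.129). ABCB11, the bile salt export pump, was at 0.41 and 0.37 TPM and at 0.51 and 0.48 TPM, under the level needed for a test.

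Of 13 bile acid synthesis genes 9 were tested, with 5 called higher and 1 lower, beside 50.1% and 25.6% of all genes. Their median log2 fold change was 0.41. After median-ratio scaling 5 were higher and 3 lower, beside 36.4% and 36.5% of all genes. AKR1D1, the steroid 5-beta-reductase, rose from 4.9 and 3.98 TPM to 59.79 and 60.92 TPM (3.74), and AKR1C4, which acts after it, rose by 0.93. BAAT, which conjugates bile acids to glycine or taurine, was at 0.19 and 0.4 TPM in sgNS against 2.34 and 2.73 TPM in METTL16 KO (2.79). It reached the test only through the KO libraries, so it could only raise the count called higher and the median of this list. The peroxisomal oxidase ACOX2 was called lower (-0.52). CYP7A1, the rate-limiting enzyme of the classical pathway, was at 0.02 and 0.03 TPM in sgNS against 1.23 and 1.35 TPM in METTL16 KO, with a mean under 1 TPM and so without a test.

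The xenobiotic receptors NR1I2 and NR1I3 were close to the bottom of the range in both groups. NR1I2 encodes PXR, which responds to drugs and secondary bile acids, and lies on chromosome 3 at 119780484-119818487 on the plus strand. Its level was 0.2 and 0.19 TPM in sgNS and 0.45 and 0.59 TPM in METTL16 KO. NR1I3 encodes CAR, on chromosome 1 at 161229666-161238244 on the minus strand, and was at 0.22 and 0.33 TPM and at 0.42 and 0.69 TPM. For both genes each KO library was above each control library, but their means were under 1 TPM and no test was made. Exons of NR1I2 overlap those of another protein-coding gene model on the same strand, whose reads cannot be told apart by strand. Exons of NR1I3 overlap those of TOMM40L on the opposite strand, which was at 33.49 and 32.8 TPM in sgNS and 46.69 and 46.46 TPM in METTL16 KO. Whether strand was used in counting is not stated in the sources used here, and the share of TOMM40L reads in the NR1I3 value was not tested.

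Of 17 PXR and CAR targets 14 were tested, 3 of which (CYP2C8, CYP2B6 and CYP3A7) reached the test through the KO libraries alone and so had to be higher, and 11 were called higher and 2 lower with a median log2 fold change of 0.68 (0.52 after median-ratio scaling, with 9 higher and 2 lower). ABCB1, the drug efflux pump P-glycoprotein, rose from 18.79 and 18.63 TPM to 78.24 and 77.98 TPM (2.06). UGT1A1, which conjugates bilirubin, rose from 4.29 and 3.39 TPM to 14.74 and 14.39 TPM (1.91). CYP2C8, a drug-oxidising cytochrome P450, was at 0.2 TPM in both controls and at 3.54 and 2.65 TPM in METTL16 KO (3.40). The genes called lower were GSTA1, a glutathione transferase (-1.11), and ABCC2, a canalicular exporter of conjugates (-0.31). CYP3A4, the main drug-metabolising P450 of adult liver and the classical PXR target, stayed at 0.13 and 0.05 TPM in sgNS and 0.11 and 0.09 TPM in METTL16 KO. The 11 of 14 called higher stand beside 50.1% of all genes, and the 9 of 14 after scaling beside 36.4%. Both counts include the 3 genes that had to be higher, which also raise the medians, so the comparison with all genes is not an even one. UGT1A, CYP2C, GSTA and AKR1C genes have near-identical relatives between which reads can be split, so their values are less certain.

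**Figure D2:**
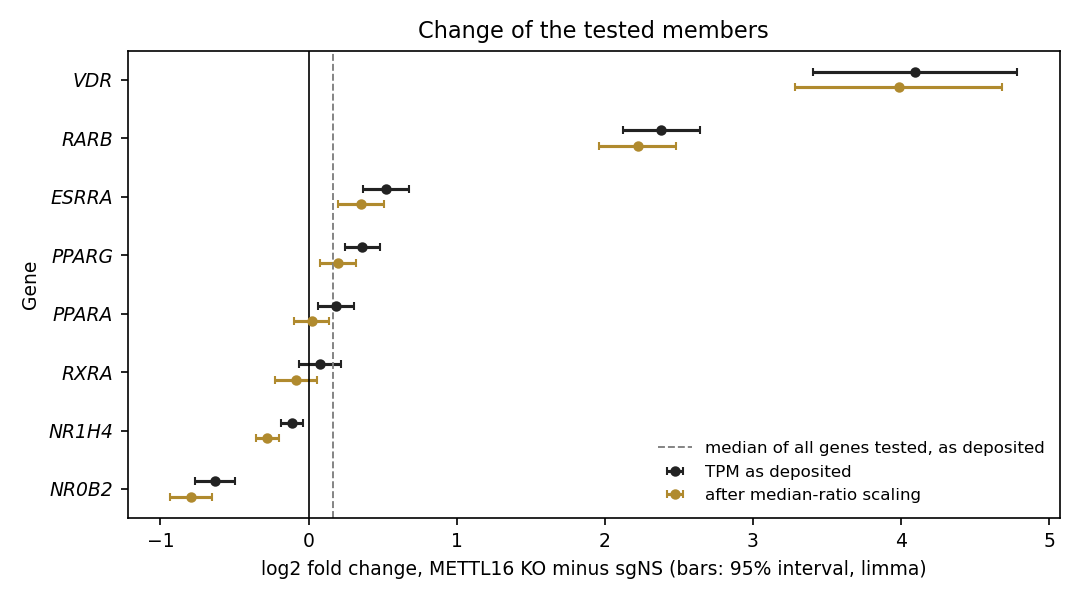
Log2 fold change (METTL16 KO minus sgNS) of the 8 tested receptors with 95% confidence intervals, at the deposited TPM scale and after median-ratio scaling, with the median of all genes as a line. VDR and RARB lie far to the right of the all-gene median of 0.16, NR0B2 and NR1H4 lie left of it on both scales, and PPARA and RXRA lie around it.

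Among the fatty acid receptors PPARG was higher in METTL16 KO by more than the shift of all genes, and PPARA was not. PPARG, the regulator of fat storage, lies on chromosome 3 at 12287368-12434356 on the plus strand. It was at 39.43 and 40.78 TPM in sgNS against 49.77 and 53.58 TPM in METTL16 KO. The groups were apart, with a log2 fold change of 0.36 (SE 0.052, adjusted p = 7.8e-05) and of 0.20 (adjusted p = 0.0067) after median-ratio scaling. PPARA, the receptor that induces fatty acid oxidation in the fasted liver, lies on chromosome 22 at 46150521-46243755 on the plus strand. Its level was 25.82 and 25.13 TPM in sgNS and 28.66 and 29.33 TPM in METTL16 KO. The KO libraries were again above the controls (0.19, SE 0.054, adjusted p = 0.0089), but this is close to the median of all genes, and after median-ratio scaling the value was 0.02 with a 95% interval from -0.097 to 0.14 (adjusted p = 0.734). The call was also lost without METTL16 KO replicate 2 (adjusted p = 0.0843).

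PPARG was the most abundant PPAR mRNA in all 4 libraries, in contrast to adult liver, where PPARA is known as the dominant form. The 3 PPAR mRNAs summed to 81.35 and 81.71 TPM in sgNS against 99.38 and 102.18 TPM in METTL16 KO. PPARG made up 48.5% and 49.9% of that sum in the controls and 50.1% and 52.4% in the KO libraries, PPARA 31.7% and 30.8% and then 28.8% and 28.7%, and PPARD the remainder. The composition of the PPAR pool therefore moved by a few percentage points at most, and the PPARD share overlapped between the groups.

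Of 23 PPARA targets 20 were tested, of which 9 were called higher and 8 lower, beside 50.1% and 25.6% of all genes. Their median log2 fold change, 0.16, equalled that of all genes. FABP1, the liver fatty acid binding protein, rose from 796.47 and 834.19 TPM to 2755.82 and 2832.48 TPM (1.78). CPT1A, which admits fatty acids to mitochondria, rose from 14.69 and 14.21 TPM to 35.17 and 36.52 TPM (1.30), and the pantetheinase VNN1 was at 0.85 and 0.62 TPM against 2.0 and 2.32 TPM (1.45, tested only through the KO libraries). The first enzymes of the mitochondrial oxidation spiral went down: ACADVL was at 133.74 and 127.9 TPM in sgNS against 63.35 and 63.22 TPM in METTL16 KO (-1.05), and ACADM changed by -1.03. APOA5, a regulator of plasma triglyceride, was also called lower (-1.15). Members of a single target list, all inducible by PPARA, thus stood at both ends of the range.

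Of 11 PPARG targets only 5 reached the level for a test, with 2 called higher and 3 lower, beside 50.1% and 25.6% of all genes. PCK1, a gluconeogenic enzyme, was at 0.02 and 0.03 TPM in sgNS against 2.05 and 2.2 TPM in METTL16 KO (4.15, tested only through the KO libraries), and the lipid droplet protein PLIN4 was higher by 1.08. The genes called lower were G0S2, an inhibitor of triglyceride lipase (-0.88), the lipid droplet protein CIDEC (-0.73, adjusted p = 0.0533 with no filter) and the phosphatase LPIN1 (-0.26, adjusted p = 0.0899 without METTL16 KO replicate 2). The other 6, which include the adipocyte genes FABP4, LPL and ADIPOQ, had means under 1 TPM.

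The receptors for retinoic acid and vitamin D showed the largest differences of the 10. RARB encodes retinoic acid receptor beta and lies on chromosome 3 at 24687887-25597932 on the plus strand. Its level was 1.56 and 1.61 TPM in sgNS and 8.63 and 8.74 TPM in METTL16 KO. The libraries of a group lay close together and the groups were far apart, with a log2 fold change of 2.38 (SE 0.12, adjusted p = 1.9e-08). The value was 2.22 after median-ratio scaling and between 1.91 and 2.45 with pseudocounts of 1 and 0.01.

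RARB is itself a classical target of retinoic acid receptors through a direct repeat of the receptor half-site in its downstream promoter, which is why that sequence is shown. In RefSeq (GRCh38.p14), the window from 250 bases before to 50 after this start is chr3:25428013-25428312 on the plus strand. The capitals mark 2 half-sites with 5 bases between them (a DR5), at -53 to -37 from the start.

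RARB: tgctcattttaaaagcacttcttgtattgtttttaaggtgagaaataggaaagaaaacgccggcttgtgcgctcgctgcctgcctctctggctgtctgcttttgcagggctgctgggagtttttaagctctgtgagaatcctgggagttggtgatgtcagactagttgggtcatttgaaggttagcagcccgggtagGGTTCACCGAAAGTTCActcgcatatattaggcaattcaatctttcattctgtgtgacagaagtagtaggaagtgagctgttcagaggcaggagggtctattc

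The half-sites searched were AGGTCA with its variant AGTTCA as well as GGGTCA with its variant GGTTCA, on both strands, as direct repeats with 1 to 5 bases between them and as inverted repeats with 1 base. Promoters were given for 8 of the 10 receptors, 19 promoters in all, and this RARB promoter was the 1 of 19 with such a repeat. Of 35116 promoters of the same length, 0.0883% held a DR5 and 38.6% held at least 1 half-site. The other repeats searched were each held by between 0.0256% (the inverted repeat) and 0.131% (the direct repeat with 1 base between). The match is a description of the letters, and the deposited gene-level TPM does not say from which RARB start the reads came.

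RARB changed its share among the 3 retinoic acid receptors. Their sum was 15.63 and 14.57 TPM in sgNS and 31.49 and 30.62 TPM in METTL16 KO. RARB made up 9.98% and 11.1% of it in the controls and 27.4% and 28.5% in the KO libraries. The share of RARG was 29.5% and 32.5% in the controls and 14.5% and 14.9% in the KO libraries, and that of RARA was 60.5% and 56.4% and then 58.1% and 56.5%, overlapping between the groups. RARA mRNA was at 9.46 and 8.22 TPM and at 18.3 and 17.31 TPM, a log2 fold change of 1.00 that left its share of the larger pool in place.

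**Figure D3:**
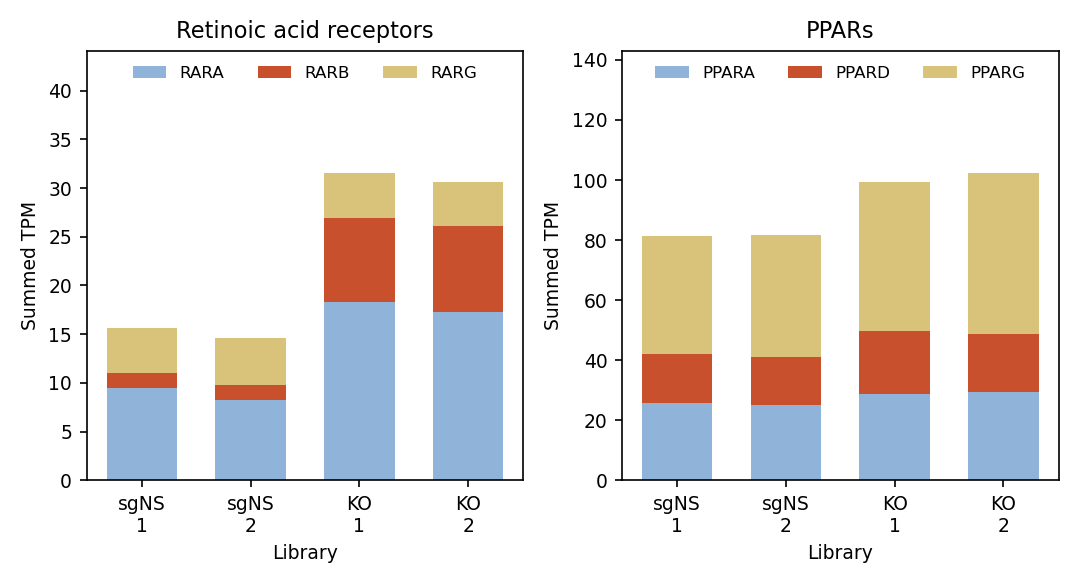
Summed TPM of the 3 retinoic acid receptors (left) and of the 3 PPARs (right) in each of the 4 libraries, stacked by gene. The RARB segment was 1.56 and 1.61 TPM high in the controls and 8.63 and 8.74 TPM in the KO libraries, while the RARG segment changed little in height, and the PPAR stacks kept much the same proportions.

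Of 21 genes for retinoid handling and RAR targets 13 were tested, with 7 called higher and 4 lower, beside 50.1% and 25.6% of all genes. Their median log2 fold change was 0.58. After median-ratio scaling it was 0.41, with 7 higher and 6 lower, beside 36.4% and 36.5% of all genes. Of the 13, 2 (RARRES3 and RARRES1) passed the filter only through the KO libraries. They could only raise these medians and the counts called higher, so the comparison with all genes is not an even one. RDH10, which oxidises retinol on the way to retinoic acid, rose from 17.81 and 18.59 TPM to 45.71 and 45.47 TPM (1.32). RARRES3, a retinoid-induced phospholipase now named PLAAT4, was at 0.39 and 0.24 TPM in sgNS against 6.2 and 7.65 TPM in METTL16 KO (4.10, tested only through the KO libraries), and RARRES1, which passed in the same way, was at 0.42 and 0.56 TPM against 2.35 and 1.02 TPM (1.50, adjusted p = 0.076 after quantile normalization). The retinol dehydrogenases RDH5 (-1.41) and RDH11 (-0.63) were called lower. CYP26B1, which degrades retinoic acid, was called lower by a small amount (-0.16) and lost the call without sgNS replicate 1 (adjusted p = 0.375), without METTL16 KO replicate 1 (0.159) or 2 (0.232), with no filter (0.151) and with no intensity trend (0.157). CYP26A1, its relative and the classical retinoic acid target, was at 0.08 and 0.5 TPM in sgNS against 1.07 and 0.98 TPM in METTL16 KO, under the level for a test.

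VDR encodes the receptor for the hormonal form of vitamin D and is scarce in normal hepatocytes. It lies on chromosome 12 at 47841537-47943048 on the minus strand. It was at 0.06 TPM in both sgNS libraries against 2.61 and 2.66 TPM in METTL16 KO. VDR passed the filter on low values only through the KO libraries, so that a difference was bound to appear. A non-coding gene on the opposite strand overlaps its exons. The fitted log2 fold change was 4.10 (SE 0.31, adjusted p = 5.4e-07). Because the control level is near 0, that size depends on the pseudocount, with 5.24 at 0.01 and 1.78 at 1, and it was 3.03 after quantile normalization. Its rank among the 47 nuclear receptors went from 39 to 31, so that VDR remained below the 6 receptors from NR1H4 to NR0B2 and below RARB in METTL16 KO.

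Of 13 genes for vitamin D handling and VDR targets 7 were tested, with 5 called higher and 1 lower, beside 50.1% and 25.6% of all genes. Their median log2 fold change was 1.76. After median-ratio scaling it was 1.60, with 4 higher and 1 lower, beside 36.4% and 36.5% of all genes. LRP2 passed the filter only through the KO libraries and could only raise these medians and the counts called higher. IGFBP3, an insulin-like growth factor binding protein, rose from 10.08 and 10.5 TPM to 130.83 and 131.24 TPM (3.66). GC, the plasma vitamin D carrier made by hepatocytes, rose from 278.69 and 281.26 TPM to 1975.8 and 1921.09 TPM (2.80). LRP2, the endocytic receptor megalin that takes up this carrier, rose from 0.42 and 0.43 TPM to 2.29 and 2.19 TPM (2.16, tested only through the KO libraries), and CYP27B1, the enzyme that makes the hormonal form, rose from 2.57 and 2.12 TPM to 7.99 and 8.26 TPM (1.76). DHCR7, which removes the vitamin D precursor toward cholesterol, was called lower (-0.80). CYP24A1, the catabolic enzyme and the most responsive known VDR target, was listed at 0 in 3 libraries and at 0.08 TPM in METTL16 KO replicate 2. The genes named here that rose include a carrier, an uptake receptor and a synthesis enzyme as well as IGFBP3, and the catabolic target stayed near 0.

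RXRA, the shared partner, lies on chromosome 9 at 134317098-134440585 on the plus strand and did not differ beyond the spread of its replicates. It was at 85.19 and 72.83 TPM in sgNS against 81.69 and 84.79 TPM in METTL16 KO. The 2 controls were farther apart than the 2 KO libraries and enclosed both of them. The log2 fold change was 0.08 with a 95% interval from -0.063 to 0.22 (adjusted p = 0.28). The value depended on the controls, with 0.19 (adjusted p = 0.004) without sgNS replicate 1 and -0.034 (adjusted p = 0.502) without sgNS replicate 2, and it was -0.086 (adjusted p = 0.244) after median-ratio scaling.

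A chosen set of 14 receptors known to pair with a retinoid X receptor summed to 384.9 and 379.81 TPM in sgNS. In METTL16 KO this sum was 431.85 and 429.99 TPM. The set is not a full list of such partners and leaves out NR4A1 and NR4A2. Per RXRA transcript the sum was 4.52 and 5.22 in the controls and 5.29 and 5.07 in the KO libraries, which overlapped. This ratio covers RXRA alone, since RXRB was not analysed here. Within the sum of the set NR1H4 took 46.5% and 47.2% in sgNS and 38.6% and 38.2% in METTL16 KO. VDR took 0.0156% and 0.0158% and then 0.604% and 0.619%. FXR mRNA thus remained the largest single partner in this set, and VDR mRNA stayed a small part of it in all 4 libraries.

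ESRRA, estrogen-related receptor alpha, has no known natural hormone and works with the coactivator PGC-1 on genes of mitochondrial energy metabolism. The gene lies on chromosome 11 at 64305497-64316743 on the plus strand. It was at 20.12 and 17.57 TPM in sgNS against 26.57 and 27.52 TPM in METTL16 KO. Both KO libraries were above both controls, with a log2 fold change of 0.52 (SE 0.071, adjusted p = 5.1e-05) and of 0.36 (adjusted p = 0.00096) after median-ratio scaling. ESRRA exons overlap those of TRMT112 on the opposite strand, which was at 90.7 and 90.97 TPM in sgNS against 87.0 and 83.99 TPM in METTL16 KO (-0.09), and the share of its reads in the ESRRA value was not tested.

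Of 12 ESRRA and PGC-1 targets 11 were tested, with 8 called higher and 0 lower, beside 50.1% and 25.6% of all genes. Their median log2 fold change was 0.24, beside 0.16 for all genes, and none reached 2-fold. After median-ratio scaling the count was 5 higher and 2 lower with a median of 0.07. On that scale 36.4% of all genes were higher and 36.5% lower, so this list lay near the background. The largest were ESRRG, a related receptor at 1.12 and 1.14 TPM in sgNS against 2.28 and 2.08 TPM in METTL16 KO (0.89), and the citric acid cycle enzyme IDH3A (0.86). PPARGC1A, the gene of PGC-1alpha, was at 1.96 and 2.66 TPM in sgNS against 2.25 and 2.56 TPM in METTL16 KO (0.07, adjusted p = 0.74), with overlapping groups.

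In order of level, sgNS ran from NR1H4 through RXRA, PPARG, NR0B2, PPARA, ESRRA, RARB, NR1I3 and NR1I2 to VDR. Of these neighbours only PPARG and NR0B2 overlapped between their replicates. In METTL16 KO the order was NR1H4, RXRA, PPARG, PPARA, ESRRA, NR0B2, RARB, VDR, NR1I3 and NR1I2, and only the last pair overlapped. NR0B2 thus moved from position 4 to 6 and VDR from 10 to 8. The 10 genes together held 32.0% and 32.5% of all nuclear receptor TPM in sgNS and 27.7% and 28.2% in METTL16 KO.

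Of the 38 other nuclear receptors on the list 37 were in the table and 26 were tested. Of these 15 were called higher, 3 lower and 8 not called, beside 50.1% higher and 25.6% lower over all genes. Their median log2 fold change was 0.30 beside 0.28 for the members, each with 1 gene that passed the filter only through the KO libraries. After median-ratio scaling 13 were higher and 7 lower, beside 36.4% and 36.5% of all genes, with a median of 0.14. RARA (1.00) and NR5A2 (1.06) were called and at least 2-fold higher, as was the orphan receptor NR4A3, which was at 0.52 and 0.6 TPM and at 1.9 and 1.62 TPM (1.49) and passed the filter only through the KO libraries. The 3 called lower, named after their values were seen, were the oxysterol receptor NR1H3 (LXR alpha) with -0.49, the orphan receptor NR2F2 with -0.47 and NR6A1 with -0.41. NR1H3 was at 33.58 and 32.74 TPM in sgNS against 23.22 and 23.87 TPM in METTL16 KO. RXRG and NR0B1 were listed at 0 in all 4 libraries, and RXRB was not analysed here.

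**Figure D4:**
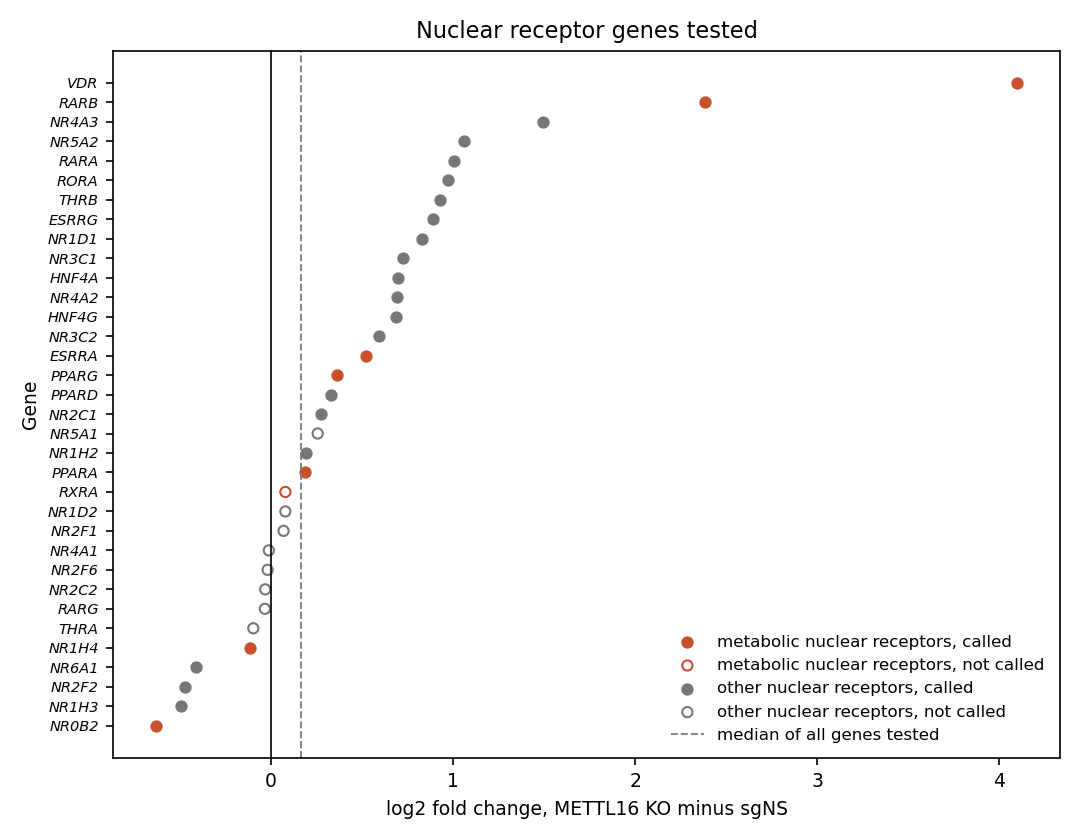
Log2 fold change (METTL16 KO minus sgNS) of each tested nuclear receptor, ordered by value, with the metabolic receptors in red, the others in grey, called genes filled and the dashed line at the median of all genes. VDR and RARB stand at the top and NR0B2 at the bottom of the order, and PPARA and RXRA lie next to the all-gene median of 0.16.

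The coregulators through which these receptors act changed by less than 2-fold. All 23 were tested, with 12 called higher, 4 lower and 7 not called, beside 50.1% higher and 25.6% lower over all genes. Their median log2 fold change was 0.25, beside 0.16. After median-ratio scaling 11 were higher and 5 lower, with a median of 0.09, beside 36.4% and 36.5% of all genes. The share called higher was thus near that of all genes at the deposited scale. The deacetylase SIRT1 (0.90), the corepressor subunit GPS2 (0.70) and the acetyltransferase CREBBP (0.69) were the most increased. The demethylase KDM1A (-0.57), the arginine methyltransferase PRMT1 (-0.40) and the mediator subunit MED1 (-0.27) were the most decreased.

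**Figure D5:**
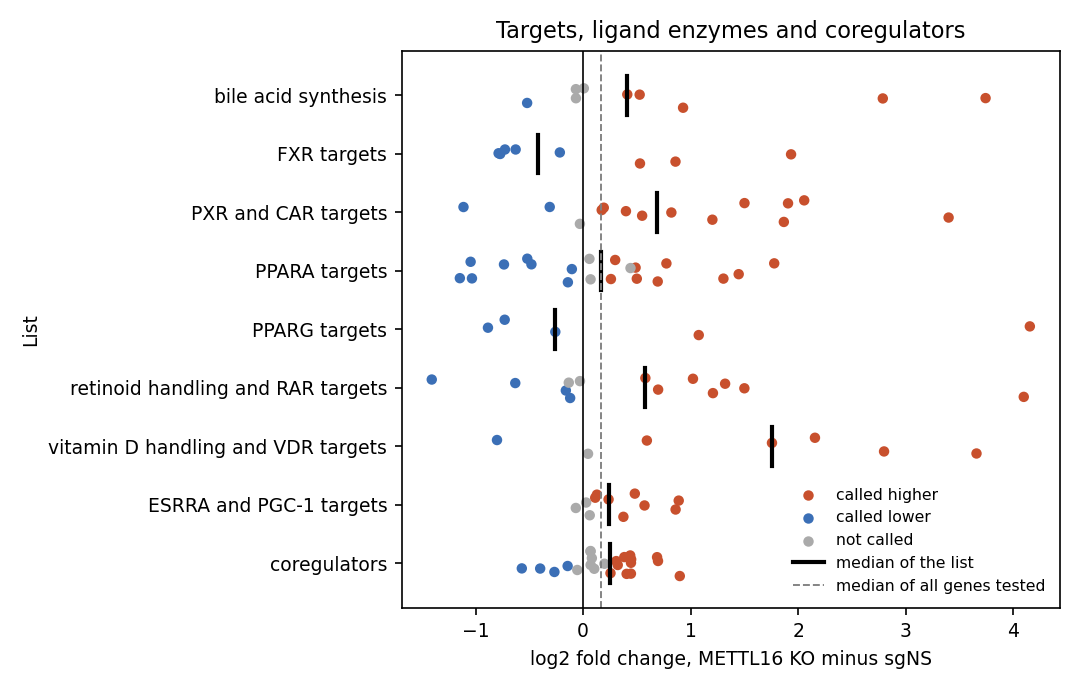
Log2 fold change (METTL16 KO minus sgNS) of each tested gene in the target, ligand and coregulator lists, with 1 point per gene, a bar at the median of the list and a line at the median of all genes. The medians run from -0.42 for FXR targets to 1.76 for vitamin D handling and VDR targets, and every list holds genes on both sides of the all-gene median of 0.16. Genes that passed the filter only through the KO libraries are included in the medians, such as LRP2 in the 1.76.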

How the data were processed

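RNA was measured in 2 sgNS and 2 METTL16 KO Huh7 libraries, grouped by GEO's labels. The labels name a stranded mRNA kit and also a ribosomal depletion. The authors trimmed reads with Cutadapt, aligned them to GRCh38 with STAR and estimated levels with RSEM; versions are not given in the sources used here. The deposited values are TPM to 2 decimals, summing to about 1000000 in each library, so the depth is unknown and no counting interval is given; TPM is relative within a library. Genes with a mean of at least 1 TPM over the 4 libraries (11971) were tested in limma 3.58.1 (R 4.3.3) on log2(TPM + 0.1) with an intensity trend and Benjamini-Hochberg adjustment over all of them. Fold changes on this scale understate changes of low genes. Genes that passed the filter through 1 group alone, 377 of all tested, stay in the counts and medians of their lists. Where that group was METTL16 KO, they could only raise the median and the count called higher. An exact two-sided permutation test of 2 against 2 cannot go under p = 0.333 and was not used. Ratios and sums were taken per library. The receptors and lists were chosen with earlier results of these data known. Named from each list were the up to 3 called genes with non-overlapping groups and the largest change in each direction, and, of the other nuclear receptors, those called and at least 2-fold changed. Some items are not reported here. ABCB4, ABCB11, FGF19, CYP7A1, CYP3A4, CYP3A7, CYP2B6, CYP26A1, CYP27B1, CYP24A1, PPARGC1A, HNF4A, RARG, PPARD and the overlapping genes were added for their known role or position after their values were seen, as was the marker sum without AFP. Sequences are from RefSeq. The script was tested on simulated data.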

Additional observations from a re-analysis of the deposited data

How the results depend on the processing

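Only 2 libraries a group limit the precision, and the unknown depth matters most for VDR, NR1I2 and NR1I3. Pseudocounts of 1 and 0.01, no filter, a minimum mean of 5 TPM (which leaves VDR, RARRES3 and other low genes without a value), median-ratio scaling, quantile normalization, a replicate block, no intensity trend and leaving out each library were tried. Over 57 single genes, 640 of 664 such values kept direction and side of the threshold, 20 lost the call, 1 gained it and 3 reversed. Most of these genes were named for being called with the largest changes of their list. Their agreement was thus partly set by that choice. The reversed values were those of RXRA, with -0.086 after median-ratio scaling, -0.057 after quantile normalization and -0.034 without sgNS replicate 2, beside 0.19 without sgNS replicate 1, where it was called. Receptors called higher were 5, and 4 after median-ratio scaling, after quantile normalization or with a minimum mean of 5 TPM. With no filter, where NR1I2 and NR1I3 were also fitted, they were 6. Leaving out sgNS replicate 1 or METTL16 KO replicate 2 changed this count as well. The count of receptors called lower was 2, and 1 with no intensity trend. Leaving out a library gave 1 to 2, with 1 without METTL16 KO replicate 1 or 2, where NR1H4 lost its call. Other nuclear receptors called lower were 3, and 7 after median-ratio scaling and 6 after quantile normalization; the cause was not tested. Same-numbered libraries did not deviate together over all genes tested (correlation -0.044). A single correlation cannot show whether they shared a preparation, which is not stated in the sources used here. With the replicate block 5 receptors were higher and 2 lower, as without it, and 6048 genes were higher and 3112 lower, beside 5999 and 3065.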
